A study of Mus musculus with 8 samples.

Results

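The collagen genes are the mouse genes that encode the alpha chains of the collagens, taken here as every counted Ensembl gene whose protein-coding symbol has the form Col, a type number, a and a chain number. This gave 44 genes of the 55414 gene identifiers counted, and they were read by class as 11 fibrillar, 8 basement membrane (types 4, 15 and 18), 10 network, 9 associated and 6 membrane and other genes. RNA came from pancreatic islets of C57BL/6 mice aged 5 weeks, in 8 bulk RNA-seq libraries. The 4 TG libraries carried the genotype Ins2 cre(+/-) ATF4 TG(+/-), in which Cre driven by the insulin gene Ins2 switches on an ATF4 transgene in beta cells. The 4 WT libraries carried Ins2 cre(-/-) ATF4 TG(+/-), so the controls also held the transgene and lacked only Cre, and no group of mice with Cre alone is part of the comparison. ATF4 is a transcription factor of the integrated stress response, and the study's title concerns stress of the endoplasmic reticulum and the response of beta cells to incretins. Nothing in the labels says whether islets of several animals were pooled, so p-values measure the spread between these libraries.

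A collagen molecule is built of 3 alpha chains wound into a triple helix, either copies of one chain or a mix of chains from different genes. Fibrillar collagens assemble into the fibres of connective tissue, type IV collagen forms the mesh of basement membranes, and associated collagens bind to the surface of fibres. Islet capillaries are wrapped in a basement membrane of type IV collagen and laminin that beta cells touch through integrins, while fibroblasts, stellate cells and the mural cells of vessels are known as the main makers of fibrillar collagen in the pancreas.

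Each library held between 16521087 and 22499999 counts in genes, so that 3 counts, taken as the floor of detection, corresponded to 0.132 to 0.1825 CPM (counts per 1000000 of the library's TMM effective size). The label check on the driven gene was not possible: Atf4, whose counts may not hold transcripts of the transgene, stood at 259.6 ± 19.6 CPM in TG libraries and 351 ± 21.1 CPM in WT libraries (SD over 4 libraries each; log2 fold change −0.43 with SE 0.0855 and adjusted p = 0.00226 in edgeR's quasi-likelihood test). The islet label was matched by the beta cell markers, which summed to 49780 to 63950 CPM in TG libraries and 102800 to 123400 CPM in WT libraries, and all 10 of them were called lower in TG. WT replicate 3 stood apart from the other WT libraries in the genes described here: it was the highest WT library for 31 of the 44 collagen genes. TG replicate 1 was the highest TG library for 30 of them, and it also held the largest sum of acinar markers, 39260 CPM. Results that rest on WT replicate 3 are given with it and without it.

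Collagen transcripts made up a larger share of the islet RNA in TG. The 44 genes together took 0.967, 0.6305, 0.788 and 0.579% in TG libraries, against 0.2496, 0.181, 0.507 and 0.18% in WT libraries, in the order of the replicate numbers, which is kept throughout. The share averaged 0.741% ± 0.175 in TG libraries and 0.279% ± 0.155 in WT libraries (SD, n = 4 each), a ratio of 2.65, or 3.64 without WT replicate 3. Every TG library lay above every WT library, although TG replicate 4 and WT replicate 3 came close to each other. In bulk islets fewer cells of a type and less RNA per cell cannot be told apart, and this holds for all levels given here. The make-up of the collagen RNA also differed. Of all collagen counts, fibrillar genes held 55.7% ± 5.62 in TG libraries and 41.1% ± 5.38 in WT libraries, and basement membrane genes held 29.5% ± 5.08 in TG libraries and 39.6% ± 3.37 in WT libraries. Col3a1 alone held 39.7% ± 5.07 in TG libraries and 26.1% ± 4.39 in WT libraries, and Col4a1 held 17.7% ± 3.35 in TG libraries and 24.7% ± 2.37 in WT libraries. These shares are sums over chosen genes and are given as a description, with no test.

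**Figure D1:**
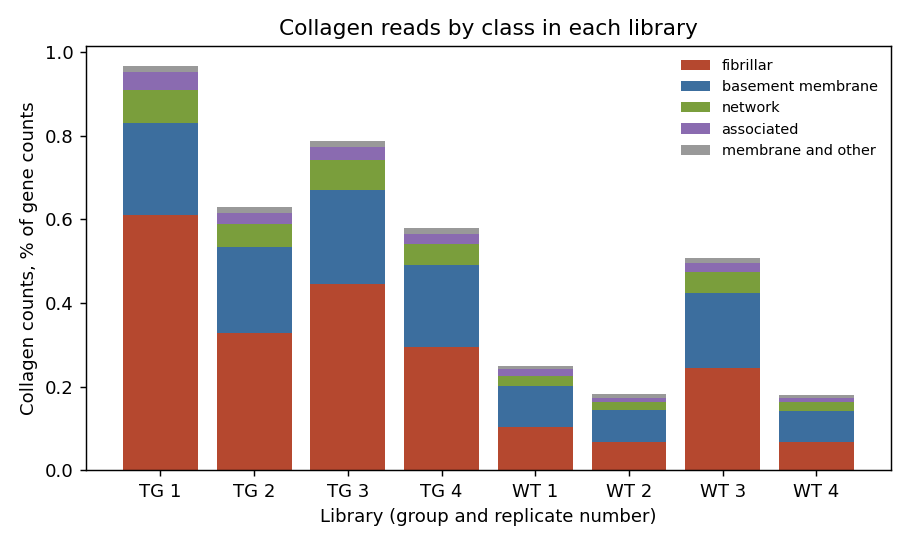
Percent of each library's gene counts that fell in collagen genes, stacked by class, for the 4 TG libraries and then the 4 WT libraries. TG libraries lie between 0.579% and 0.967%, and WT replicate 3, at 0.507%, stands above the other WT libraries, the highest of which is at 0.25%.

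All 44 collagen genes passed the filter on low counts and were tested in the fit across 20509 genes. The threshold for a call was an adjusted p of 0.05 (edgeR, Benjamini-Hochberg over all tested genes). Of the collagen genes 11 were called higher in TG, or 25.0%, against 12.1% of all tested genes, and 1 was called lower, against 8.06% of all tested genes. The other 32 did not pass the threshold, yet 39 of the 44 fold changes were positive, with a median log2 fold change of 0.84, against −0.002 over all tested genes. For 18 collagen genes every TG library lay above every WT library, which held for 12.6% of tested genes, and for 1 every TG library lay below, which held for 9.96%. By class, 2 of 11 fibrillar, 4 of 8 basement membrane, 2 of 10 network, 1 of 9 associated and 2 of 6 membrane and other genes were called higher. The class medians of the log2 fold change were 1.08, 1.11, 1.14, 0.44 and 0.56 in that order.

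The count depended on WT replicate 3. That library was singled out after its high levels in these same genes were seen. Larger fold changes and more calls without it follow in part from that choice and are no independent support. Without WT replicate 3, 29 of the 44 collagen genes were called higher, or 65.9%, while the share over all tested genes was 12.1%, as with all libraries. All 8 basement membrane genes were then called higher, along with 7 fibrillar, 7 network, 4 associated and 3 membrane and other genes, and the median log2 fold change was 1.10. Leaving out any of the other 7 libraries gave 6 to 9 genes called higher, the fewest without TG replicate 1. Calls over all genes fell too in those fits, to 1691 to 2273 genes higher in place of 2475. With all 8 libraries DESeq2 called 24 of the 44 higher, against 14.8% of all genes it gave an adjusted p, and limma-voom called 18, against 12.5% of all tested genes.

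**Figure D2:**
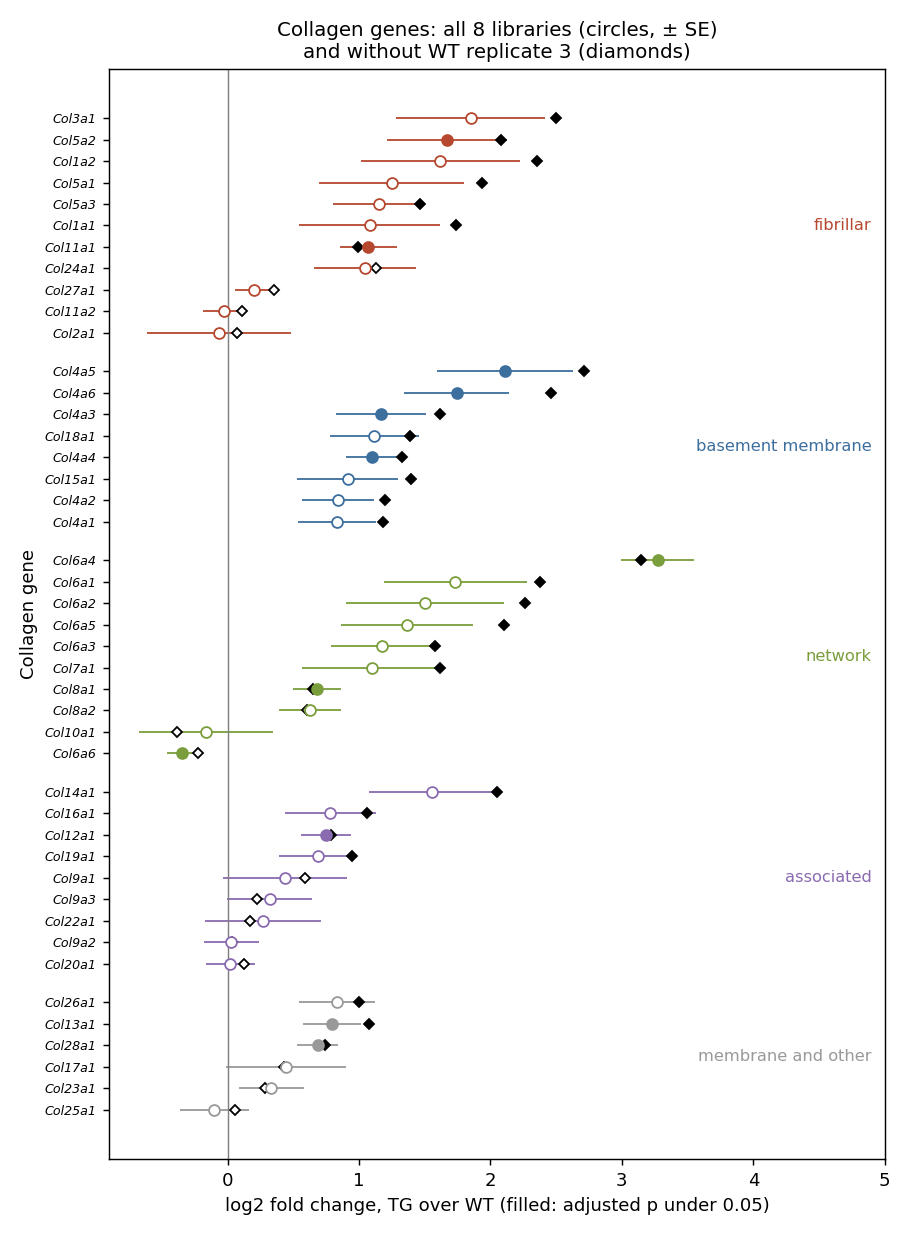
Log2 fold change of each collagen gene, TG over WT, by class, with all 8 libraries as circles with bars of ± 1 standard error and without WT replicate 3 as diamonds; filled symbols mark an adjusted p under 0.05. Most diamonds lie right of their circles and are filled, and Col6a4, at 3.27, lies furthest right.

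The fibrillar genes with the largest fold changes, Col3a1, Col5a2 and Col1a2, also had the highest levels per kilobase of the class in TG. Col3a1 (ENSMUSG00000026043) encodes type III collagen, a homotrimer of vessel walls and other distensible tissues, and had 4423, 2382, 2869 and 1969 CPM in TG libraries, against 708.5, 409.8, 1694 and 424 CPM in WT libraries. No WT library reached the lowest TG library, but WT replicate 3 lay close to it and the gene was not called (log2 fold change 1.85, SE 0.568, adjusted p = 0.0714). Leaving out WT replicate 3 gave 2.50 with adjusted p = 0.00488. Type I collagen is a heterotrimer of the products of Col1a1 and Col1a2, the main fibre of bone, tendon and scar. Col1a2 had 641, 354, 580.0 and 325 CPM in TG libraries, against 132, 70.04, 342 and 75.9 CPM in WT libraries, with WT replicate 3 above TG replicate 4 (log2 fold change 1.62, SE 0.606, adjusted p = 0.125). Col1a1 had 155, 69.7, 128.5 and 124 CPM in TG libraries, against 43.03, 26.7, 119 and 37.05 CPM in WT libraries, and here WT replicate 3 exceeded TG replicate 2 (log2 fold change 1.08, SE 0.537, adjusted p = 0.234). Without WT replicate 3 their log2 fold changes were 2.35 with adjusted p = 0.00826, and 1.74 with adjusted p = 0.00677.

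Type V collagen starts the assembly of fibres and sets their diameter. Its gene Col5a2, which lies beside Col3a1 on chromosome 1, was called higher, with 466, 233, 301 and 237 CPM in TG libraries, against 102.5, 61.6, 171 and 53.97 CPM in WT libraries (log2 fold change 1.67, SE 0.454, adjusted p = 0.0479). The groups did not overlap, but the call was lost when any library other than WT replicate 3 was left out, with adjusted p up to 0.121 and log2 fold changes of 1.42 to 2.08, and also with no filter on low counts (adjusted p = 0.106). The other type V chains were not called. Col5a1 stood at 114.5 ± 29.6 CPM in TG libraries and 48.2 ± 37.9 CPM in WT libraries (SD over 4 libraries each; log2 fold change 1.25, SE 0.554, adjusted p = 0.186), and Col5a3 at 56.03 ± 10.7 CPM in TG libraries and 25.2 ± 12.1 CPM in WT libraries (log2 fold change 1.15, SE 0.3502, adjusted p = 0.0609). Both were called without WT replicate 3, at 1.94 with adjusted p = 0.00542 for Col5a1, and 1.47 with adjusted p = 0.00521 for Col5a3, and Col5a3 also without WT replicate 4 (0.94, adjusted p = 0.0491).

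Of the minor fibrillar chains, several best known from cartilage, 1 was called. Col11a1, a chain of type XI collagen, was called higher, with 12.8, 10.9, 11.6 and 7.22 CPM in TG libraries, against 6.505, 5.28, 4.34 and 4.14 CPM in WT libraries (log2 fold change 1.07, SE 0.215, adjusted p = 0.00255). WT replicate 3 was not high for this gene, and the call held in each of the 8 fits that left out 1 library, with adjusted p up to 0.0149. Its partner Col11a2 was not called, at 22.1 ± 3.96 CPM in TG libraries and 22.5 ± 4.77 CPM in WT libraries (log2 fold change −0.03, SE 0.162, adjusted p = 0.941). Col27a1 had 40.1 ± 3.19 CPM in TG libraries and 34.9 ± 8.63 CPM in WT libraries and was not called (log2 fold change 0.20, SE 0.148, adjusted p = 0.394). Col2a1 and Col24a1 averaged under 5 CPM over the 8 libraries: Col2a1 had a log2 fold change of −0.07 and Col24a1 of 1.05 (adjusted p = 0.0715), and Col24a1 was called without WT replicate 2 (1.37, adjusted p = 0.0404).

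The stretches upstream of Col3a1 and Col1a2, the fibrillar genes with the most counts, are shown because both lay near the top of the family in fold change while their upstream sequences shared none of the motifs searched. They come from RefSeq on GRCm38.p6, an earlier build than the mm39 of the counts, run 5′ to 3′ on the strand of the gene (both genes on the plus strand), and leave out bases that overlap an annotated exon. Capitals mark the motifs found. The Col3a1 stretch is chr1:45311288-45311537, from 250 to 1 bases upstream of the RefSeq start, with a TATA box (TATAAA) that begins 117 bases upstream. The Col1a2 stretch is chr6:4505370-4505492, from 248 to 126 bases upstream, with GC boxes (GGGCGG) that begin 205 and 188 bases upstream. A CCAAT of Col1a2 that begins 109 bases upstream lies in the exon bases left out.
Col3a1: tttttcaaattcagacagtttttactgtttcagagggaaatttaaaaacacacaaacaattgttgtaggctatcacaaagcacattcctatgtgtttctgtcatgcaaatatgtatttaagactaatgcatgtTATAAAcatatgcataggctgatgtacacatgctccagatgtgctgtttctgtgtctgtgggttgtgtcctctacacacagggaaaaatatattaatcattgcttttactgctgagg
Col1a2: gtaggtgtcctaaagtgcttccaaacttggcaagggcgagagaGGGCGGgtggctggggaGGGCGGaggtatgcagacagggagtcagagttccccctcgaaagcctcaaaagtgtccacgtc

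The 250 bases upstream of a start were available for 35 of the 44 collagen genes, as 38 windows, and were compared with the 32851 windows of all genes, on both strands. Unlike the stretches shown, these windows keep bases that overlap annotated exons, and matches there are counted. The windows of Col20a1, Col4a1, Col4a2 and Col6a4 lie wholly in exons. The GC box, GGGCGG, was in 22 collagen windows, or 57.9%, against 32.7% of all windows. The TATA box, TATAAA, was in 5 of them (13.2%, against 12.4% of all), and CCAAT was in 13 (34.2%, against 33.9% of all). The composite element TGATGNAA, the form that C/EBP and ATF4 proteins bind together, was in 0 of the 38 collagen windows and in 3.45% of all windows. The AP-1 site TGANTCA was in 1 collagen window, 2.63%, against 6.75% of all windows. No motif searched contains another, and a match or its lack says only what is in these windows.

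Basement membrane collagens were the class with the largest part called higher. Type IV collagen comes as trimers of the Col4a1 and Col4a2 chains in nearly all basement membranes, of the Col4a3, Col4a4 and Col4a5 chains, best known from the kidney filter, and of the Col4a5 and Col4a6 chains in some epithelia and smooth muscle. The common chains were abundant and were not called. Col4a1 had 1255, 1314, 1258 and 1099 CPM in TG libraries, against 674, 504, 1146 and 445 CPM in WT libraries, with WT replicate 3 above TG replicate 4 (log2 fold change 0.83, SE 0.294, adjusted p = 0.0951). Col4a2 had 437, 465, 474 and 481.5 CPM in TG libraries, against 230.2, 185, 432 and 192 CPM in WT libraries, with all TG libraries above all WT libraries (log2 fold change 0.84, SE 0.273, adjusted p = 0.0726). Both were called without WT replicate 3, Col4a1 at 1.18 with adjusted p = 1.39e-05, and Col4a2 at 1.19 with adjusted p = 1.26e-06.

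The 4 less common type IV chains were all called higher. Col4a5 (ENSMUSG00000031274) had 90.99, 43.7, 80.5 and 50.4 CPM in TG libraries, against 12.3, 9.78, 31.1 and 8.09 CPM in WT libraries, the largest fold change of the class (log2 fold change 2.11, SE 0.515, adjusted p = 0.0331). Col4a6 had 9.44, 5.98, 8.31 and 7.27 CPM in TG libraries, against 1.45, 1.24, 4.98 and 1.52 CPM in WT libraries (log2 fold change 1.74, SE 0.399, adjusted p = 0.00891). For both genes every TG library exceeded every WT library, and the ratio of WT replicate 3 to the mean of the other WT libraries was 3.09 for Col4a5 and 3.55 for Col4a6. Col4a3 had 32.5, 21.3, 24.9 and 24.1 CPM in TG libraries, against 9.54, 9.28, 20.6 and 6.14 CPM in WT libraries (log2 fold change 1.17, SE 0.344, adjusted p = 0.0464). Col4a4 had 24.6, 18.1, 21.1 and 19.1 CPM in TG libraries, against 7.37, 7.303, 13.9 and 10.2 CPM in WT libraries (log2 fold change 1.10, SE 0.196, adjusted p = 0.00118). The groups did not overlap for these chains either. The calls of Col4a4 and Col4a6 held whichever library was left out, with adjusted p up to 0.00528 and 0.0312. That of Col4a3 was lost without any library other than WT replicate 3 (adjusted p up to 0.129, log2 fold changes 0.96 to 1.61). That of Col4a5 was lost without TG replicate 1 or 3 and without WT replicate 1, 2 or 4 (adjusted p up to 0.0952, log2 fold changes 1.90 to 2.71), and with no filter on low counts (adjusted p = 0.0735).

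Types XV and XVIII tie basement membranes to the tissue around them, and the end of type XVIII is released as endostatin, an inhibitor of vessel growth. Col15a1 had 173, 129, 146.5 and 148 CPM in TG libraries, against 66.5, 44.1, 147 and 59.1 CPM in WT libraries, and WT replicate 3 lay within the TG range (log2 fold change 0.91, SE 0.387, adjusted p = 0.165). Col18a1 had 114, 60.97, 87.05 and 75.6 CPM in TG libraries, against 44.2, 23.8, 59.6 and 27.99 CPM in WT libraries, with WT replicate 3 just under the lowest TG library (log2 fold change 1.11, SE 0.338, adjusted p = 0.0619). Neither was called with all libraries, and both were without WT replicate 3, Col15a1 at 1.40 with adjusted p = 6.85e-06, and Col18a1 at 1.39 with adjusted p = 0.0113.

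Type IV genes lie as head-to-head pairs, and the pair Col4a5 and Col4a6 on chromosome X is shown because both members were called higher, with the largest fold changes of the class. In RefSeq on GRCm38.p6 their starts lie 1343 bases apart, with a gap between the genes. The starts of Col4a1 and Col4a2 on chromosome 8 lie 21 bases apart without a gap, and annotated exons of this pair overlap by 22 bases. The ratio of counts of Col4a2 to Col4a1 is given with the chain ratios. The Col4a5 stretch is chrX:141475169-141475384 on the plus strand, from 250 to 35 bases upstream of its start, with CCAAT beginning 196 bases upstream. A GC box of Col4a5 that begins 30 bases upstream lies in the exon bases left out. The Col4a6 stretch is chrX:141474077-141474326 on the minus strand, from 250 to 1 bases upstream, with a GC box on the opposite strand (read as CCGCCC) that begins 21 bases upstream. Exon bases are left out, each runs 5′ to 3′ on its gene's strand, and capitals mark the motifs.
Col4a5: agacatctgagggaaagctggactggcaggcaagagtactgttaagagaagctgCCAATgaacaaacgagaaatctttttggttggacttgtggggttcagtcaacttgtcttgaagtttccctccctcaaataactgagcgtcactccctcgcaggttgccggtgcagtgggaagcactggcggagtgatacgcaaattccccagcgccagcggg
Col4a6: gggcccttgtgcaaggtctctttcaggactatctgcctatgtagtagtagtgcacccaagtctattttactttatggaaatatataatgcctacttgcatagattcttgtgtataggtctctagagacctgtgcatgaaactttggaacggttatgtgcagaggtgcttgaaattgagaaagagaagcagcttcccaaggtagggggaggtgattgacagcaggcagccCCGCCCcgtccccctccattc

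The network class held both the largest rise of the family and its only gene called lower, in type VI collagen. Type VI collagen forms beaded filaments around cells from the chains of Col6a1 and Col6a2 and a further chain made by Col6a3, Col6a4, Col6a5 or Col6a6. The last 3 of these genes lie in a row on chromosome 9. Col6a4 (ENSMUSG00000032572), whose human counterpart is broken by an inversion and makes no protein, had 7.24, 14.6, 11.8 and 11.4 CPM in TG libraries, against 1.74, 1.01, 0.877 and 1.03 CPM in WT libraries. Every TG library stood well above every WT library, and WT replicate 3 was the lowest of its group. The gene was called with the largest fold change of the 44 (log2 fold change 3.27, SE 0.279, adjusted p = 1.31e-06), from counts of 17 to 330 a library. It was called under all 17 alternative settings, with log2 fold changes of 3.12 to 3.53 as single libraries were left out.

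The neighbouring genes had other values. Col6a6 (ENSMUSG00000043719) was the only collagen gene called lower, with 76.9, 74.6, 82.1 and 85.1 CPM in TG libraries, against 95.9, 90.98, 128 and 91.8 CPM in WT libraries. Every TG library lay below every WT library, by a small step (log2 fold change −0.35, SE 0.1098, adjusted p = 0.0342), and the call was lost without TG replicate 1, TG replicate 2 or WT replicate 3 (adjusted p up to 0.0983, log2 fold changes −0.41 to −0.23). Col6a5 had 18.9, 11.3, 15.4 and 11.1 CPM in TG libraries, against 3.37, 4.09, 12.1 and 2.31 CPM in WT libraries, with WT replicate 3 inside the TG range (log2 fold change 1.36, SE 0.503, adjusted p = 0.104), and was called without WT replicate 3 at 2.10 with adjusted p = 2.55e-05.

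The common chains of type VI resembled the fibrillar genes in their spread. Col6a1 had 296, 189, 219.6 and 154 CPM in TG libraries, against 57.5, 30.1, 135 and 35.8 CPM in WT libraries, with no overlap and no call (log2 fold change 1.73, SE 0.542, adjusted p = 0.0753). Col6a2 stood at 150.4 ± 36.2 CPM in TG libraries and 53.2 ± 45.4 CPM in WT libraries (SD over 4 libraries each; log2 fold change 1.50, SE 0.603, adjusted p = 0.148). Col6a3 stood at 110.2 ± 21.4 CPM in TG libraries and 48.8 ± 26.4 CPM in WT libraries (log2 fold change 1.18, SE 0.392, adjusted p = 0.0878). Without WT replicate 3 all were called, Col6a1 at 2.38 with adjusted p = 0.00282, Col6a2 at 2.27 with adjusted p = 0.00622, and Col6a3 at 1.58 with adjusted p = 0.00282.

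Type VIII collagen is a short-chain collagen made around vessels. Col8a1 was called higher, with 18.5, 13.1, 15.1 and 10.97 CPM in TG libraries, against 11.3, 7.76, 8.49 and 8.46 CPM in WT libraries (log2 fold change 0.68, SE 0.183, adjusted p = 0.0157). WT replicate 1 lay just above TG replicate 4, and the call was lost without TG replicate 1, TG replicate 3 or WT replicate 2 (adjusted p up to 0.0626, log2 fold changes 0.54 to 0.80), and with an acinar marker covariate (adjusted p = 0.06101). Col8a2 stood at 5.42 ± 1.24 CPM in TG libraries and 3.505 ± 0.657 CPM in WT libraries, not called although the groups did not overlap (log2 fold change 0.62, SE 0.238, adjusted p = 0.0786). Col7a1, the collagen of anchoring fibrils under epithelia, had 34.5, 13.3, 12.4 and 12.3 CPM in TG libraries, against 6.698, 4.59, 16.1 and 6.39 CPM in WT libraries, a spread set by TG replicate 1 and WT replicate 3 (log2 fold change 1.10, SE 0.531, adjusted p = 0.214), and was called without WT replicate 3 at 1.62 with adjusted p = 0.0317. Col10a1, a gene of cartilage turning to bone, was under 5 CPM and not called (log2 fold change −0.17).

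**Figure D3:**
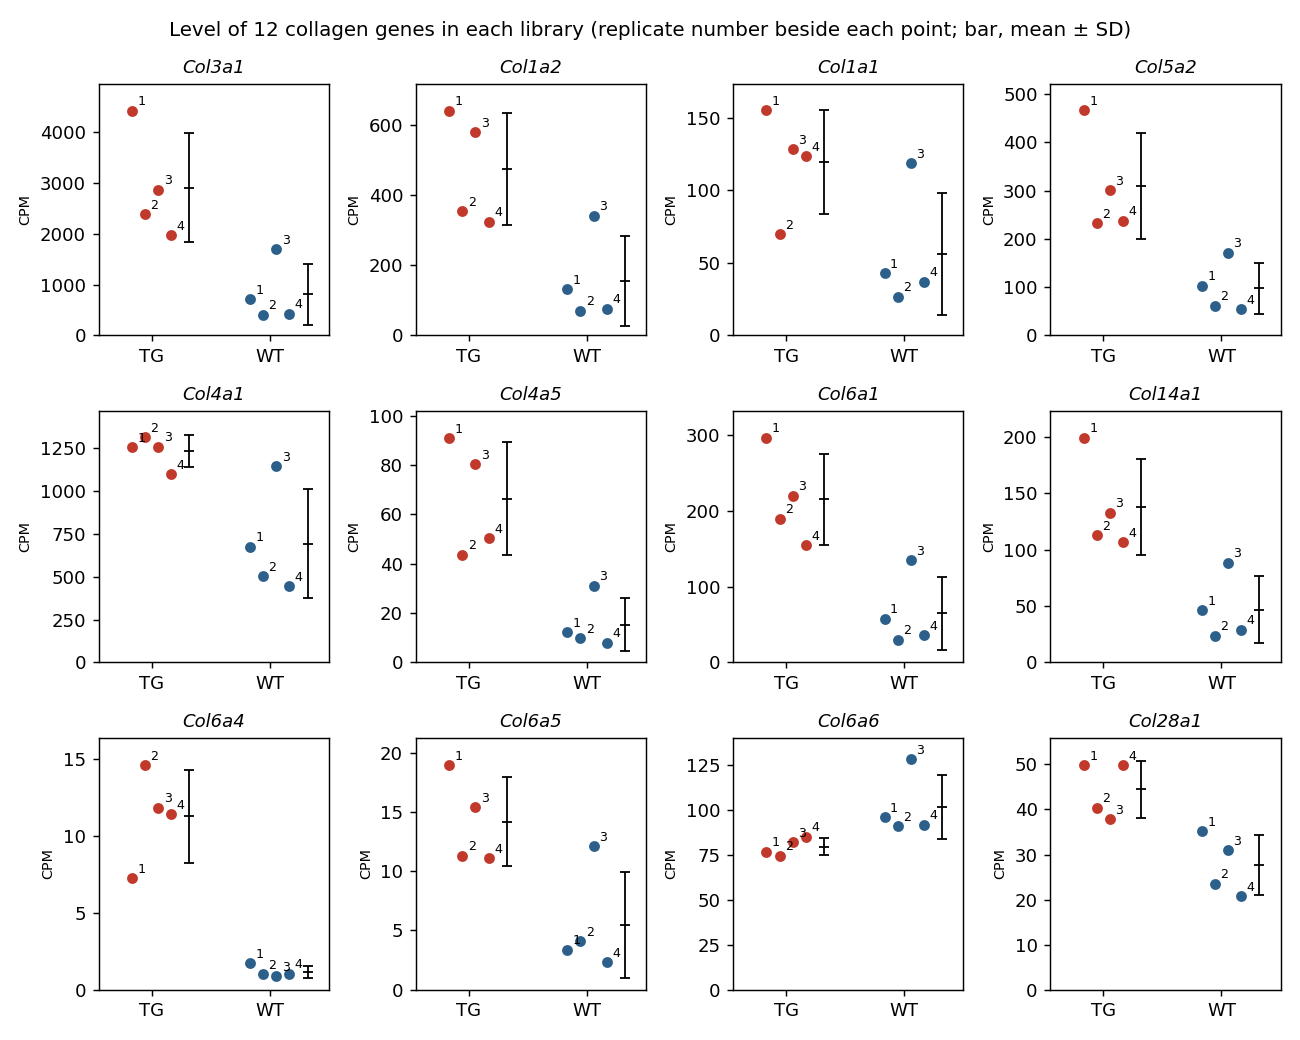
CPM of 12 collagen genes in each library, TG left and WT right, with the replicate number beside each point and a bar of mean ± SD; each panel has its own linear axis from 0. WT replicate 3 sits near or inside the TG range for Col3a1, Col1a2, Col1a1, Col4a1 and Col6a5, at the low end for Col6a4 (0.877 CPM) and above the rest for Col6a6 (128 CPM).

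Associated collagens bind to fibres without forming them. Col12a1, which coats fibres in tissues under load, was the only one of the 9 called higher, with 25.7, 16.7, 20.97 and 20.5 CPM in TG libraries, against 16.1, 8.22, 13.6 and 11.99 CPM in WT libraries (log2 fold change 0.75, SE 0.189, adjusted p = 0.0118). Its groups did not overlap and the call held whichever library was left out, with adjusted p up to 0.0382. Col14a1, its relative in skin and tendon, had the highest CPM of the class in TG, with 199.5, 113, 133 and 107 CPM in TG libraries, against 46.6, 23.6, 88.5 and 29.1 CPM in WT libraries. It had a larger fold change and no overlap but was not called (log2 fold change 1.55, SE 0.476, adjusted p = 0.0706). Without WT replicate 3 it was called, at 2.05 with adjusted p = 0.00666. Col16a1 stood at 104 ± 28.4 CPM in TG libraries and 60.7 ± 25.8 CPM in WT libraries (log2 fold change 0.78, SE 0.343, adjusted p = 0.175), and was called without WT replicate 3 at 1.06 with adjusted p = 0.0408.

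The genes of this class that follow were not called with all 8 libraries. Col9a2, a chain of the cartilage collagen type IX, had 12.9 ± 2.32 CPM in TG libraries and 12.7 ± 3.66 CPM in WT libraries (SD over 4 libraries each; log2 fold change 0.03, SE 0.209, adjusted p = 0.951). Col20a1 had 11.2 ± 1.32 CPM in TG libraries and 11.1 ± 2.74 CPM in WT libraries (log2 fold change 0.02, SE 0.184, adjusted p = 0.958). Col9a1, Col9a3, Col19a1 and Col22a1 averaged under 5 CPM and were not called, with log2 fold changes of 0.44, 0.32, 0.69 and 0.27 in that order, and Col19a1 was called without WT replicate 3 at 0.95 with adjusted p = 0.0365.

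The last class holds collagens that span the cell membrane and types outside the other classes. Col13a1, a membrane collagen needed at the nerve-muscle junction, was called higher, with 75.9, 94.97, 74.7 and 70.8 CPM in TG libraries, against 36.04, 39.7, 70.3 and 36.8 CPM in WT libraries (log2 fold change 0.79, SE 0.2196, adjusted p = 0.0335). The highest WT library, replicate 3, lay just below the lowest TG library, and the call was lost without any TG library but replicate 4 and without WT replicate 1, 2 or 4 (adjusted p up to 0.0891, log2 fold changes 0.69 to 1.07), and with the acinar marker covariate (adjusted p = 0.0609). Col28a1, a collagen with von Willebrand factor domains known from peripheral nerve in the mouse, was called higher, with 49.8, 40.4, 37.8 and 49.8 CPM in TG libraries, against 35.2, 23.5, 30.9 and 20.8 CPM in WT libraries (log2 fold change 0.69, SE 0.158, adjusted p = 0.007295). Here the groups did not overlap, and the call held whichever library was left out, with adjusted p up to 0.0299.

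Col26a1 stood at 7.24 ± 1.89 CPM in TG libraries and 4.04 ± 1.52 CPM in WT libraries and missed the threshold (log2 fold change 0.83, SE 0.289, adjusted p = 0.0557). This gene was called without TG replicate 3 (0.94, adjusted p = 0.0483) and without WT replicate 3 (0.998, adjusted p = 0.0311). Col25a1, a membrane collagen of neurons, had 5.24 ± 1.49 CPM in TG libraries and 5.62 ± 1.61 CPM in WT libraries (log2 fold change −0.10, SE 0.2598, adjusted p = 0.8401). Col17a1, the collagen of hemidesmosomes, and Col23a1 averaged under 5 CPM and were not called, with log2 fold changes of 0.44 and 0.33.

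The highest collagens per length were Col3a1, Col4a1 and Col4a2 in both groups. Per kilobase of annotated exon, Col3a1 was the highest collagen transcript in TG and the second in WT, at 296.5 and 82.4 CPM per kilobase in TG and WT. Col4a1 was second in TG and first in WT, at 165 and 92.8 CPM per kilobase. Col4a2, at 70.2 and 39.2, and Col6a1, at 49.02 and 14.7, ranked 3 and 4 in both groups with all libraries. Without WT replicate 3 Col6a6 ranked 4 and Col6a1 5 in WT, at 10.1 and 9.39 CPM per kilobase. Col6a6 was 18th in TG and 7th in WT, at 8.695 and 11.1 CPM per kilobase. After the first 4 the WT order with all libraries ran Col15a1, Col1a2, Col6a6 and Col5a2, at 12.5, 12.5, 11.1 and 10.1 CPM per kilobase, and neighbours among these differed by less than the SD between WT libraries.

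Ratios between genes within a library need no scaling, and 7 were compared over the 70 arrangements of 4 against 4, for which the smallest two-sided exact p is 0.0286. For the common chains of type IV, Col4a2 counts over Col4a1 counts were 0.348, 0.354, 0.377 and 0.438 in TG libraries, against 0.341, 0.367, 0.377 and 0.431 in WT libraries (exact permutation p = 1, adjusted p = 1 over the 7 ratios). The mean was 0.379 ± 0.0412 in TG libraries and 0.379 ± 0.0377 in WT libraries (SD, n = 4 each), and WT replicate 3, high for both genes, lay inside the range of the other libraries here. Col6a2 over Col6a1 was 0.612, 0.681, 0.826 and 0.717 in TG libraries, against 0.808, 0.679, 0.884 and 0.742 in WT libraries, and the groups overlapped (exact permutation p = 0.314, adjusted p = 0.367). For type I, Col1a2 over Col1a1 was 4.13, 5.08, 4.51 and 2.63 in TG libraries, against 3.07, 2.62, 2.88 and 2.05 in WT libraries, with TG replicate 4 inside the WT range (exact permutation p = 0.0857, adjusted p = 0.12). Without TG replicate 4 the exact p of that ratio was 0.0286, the smallest that 3 against 4 libraries allow.

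The other 4 ratios were chosen after their values were seen. Col6a3 over Col6a1 was 0.462, 0.502, 0.538 and 0.589 in TG libraries, against 0.899, 0.879, 0.629 and 0.896 in WT libraries, so that all TG libraries lay below all WT libraries (exact permutation p = 0.0286, adjusted p = 0.1). Col3a1 over Col1a1 was 28.5, 34.2, 22.3 and 15.9 in TG libraries, against 16.5, 15.3, 14.3 and 11.4 in WT libraries, with only TG replicate 4 inside the WT range (exact permutation p = 0.0571, adjusted p = 0.12). Col6a4 over Col6a6 was 0.0941, 0.196, 0.144 and 0.134 in TG libraries, against 0.0181, 0.0111, 0.00683 and 0.0113 in WT libraries. A wide gap lay between the groups (exact permutation p = 0.0286, adjusted p = 0.1). Every TG library was above every WT library for Col6a4 and below for Col6a6, so this ratio had to separate the groups. Its exact p was thus fixed at the smallest value by the choice of genes and is no support. Col6a4 over Col6a5 was 0.382, 1.29, 0.769 and 1.03 in TG libraries, against 0.514, 0.247, 0.0725 and 0.447 in WT libraries, where TG replicate 1 overlapped WT (exact permutation p = 0.0857, adjusted p = 0.12). After adjustment none of the 7 ratios passed 0.05. Ratios at the smallest possible exact p, 0.0286, still had an adjusted p of 0.1, so the lack of calls says little.

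**Figure D4:**
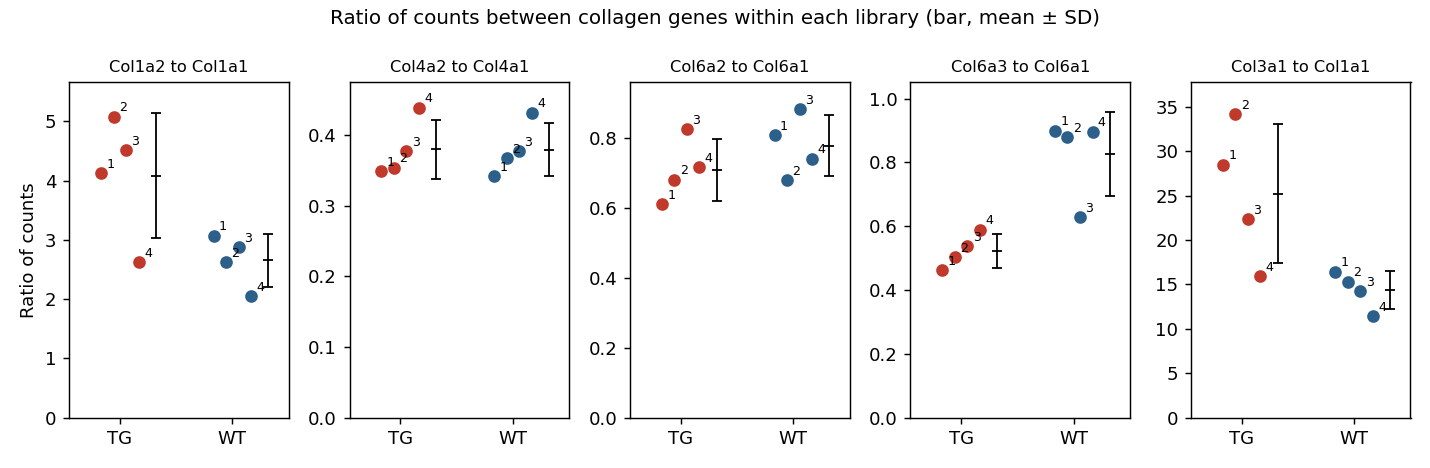
Ratio of counts between pairs of collagen genes in each library, TG left and WT right, with the replicate number beside each point and a bar of mean ± SD; axes are linear from 0. Col4a2 to Col4a1 lies between 0.348 and 0.438 in TG and between 0.341 and 0.431 in WT, while Col6a3 to Col6a1 lies between 0.462 and 0.589 in TG and between 0.629 and 0.899 in WT.

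Genes that act on collagen were read from lists written beside the collagen classes. Of 18 genes that modify, fold and export procollagen in the endoplasmic reticulum, 5 were called higher and 1 lower (median log2 fold change 0.24). Beside this and the counts of the other lists stand the 12.1% of all tested genes called higher and 8.06% called lower. Colgalt2, which adds galactose to hydroxylysine, rose (23.6 ± 1.82 CPM in TG libraries and 13.7 ± 2.08 CPM in WT libraries; log2 fold change 0.78, SE 0.134, adjusted p = 0.000778), as did the hydroxylases P3h3 (0.70, adjusted p = 0.003302) and Plod2 (0.86, adjusted p = 0.00864). Mia3, which loads procollagen for export, fell (603 ± 55.97 CPM in TG libraries and 812 ± 100.1 CPM in WT libraries; log2 fold change −0.43, SE 0.102, adjusted p = 0.00779). Serpinh1, the collagen chaperone HSP47, stood at 253 ± 101 CPM in TG libraries and 91.8 ± 44 CPM in WT libraries and was not called (log2 fold change 1.47, SE 0.439, adjusted p = 0.0653), a gene outside the naming rule that was chosen after its values were seen.

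Of 13 genes for procollagen processing and cross-linking, 3 were called higher and 1 lower (median 0.97). The protease gene Tll1 rose (6.7 ± 1.3 CPM in TG libraries and 2.11 ± 1.07 CPM in WT libraries; log2 fold change 1.68, SE 0.339, adjusted p = 0.00283), while Bmp1, which encodes the main protease that cuts off the C-terminal propeptide, fell (58.05 ± 9.84 CPM in TG libraries and 83.5 ± 11.3 CPM in WT libraries; log2 fold change −0.52, SE 0.124, adjusted p = 0.00826). The cross-linking oxidase genes Loxl3 (0.97, adjusted p = 0.00814) and Loxl1 (1.62, adjusted p = 0.0329) were called higher. Loxl1 lost its call without TG replicate 1, 2 or 3 and without WT replicate 1 or 4 (adjusted p up to 0.0938, log2 fold changes 1.35 to 1.96 as libraries were left out), and with no filter on low counts (adjusted p = 0.104). Without WT replicate 3, 7 of these 13 genes were called higher, and 8 of the 18 modification genes.

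Of 10 collagen-degrading enzymes and their inhibitors 8 were tested and 4 were called higher (median 1.10). The metalloproteinase inhibitors Timp2 (86.9 ± 10.5 CPM in TG libraries and 37.5 ± 8.79 CPM in WT libraries; log2 fold change 1.21, SE 0.1497, adjusted p = 0.000112) and Timp3 (226 ± 39.2 CPM in TG libraries and 114 ± 19.8 CPM in WT libraries; log2 fold change 0.99, SE 0.138, adjusted p = 0.000296) rose together with the proteases Ctsk (1.84, adjusted p = 0.001095) and Mmp14 (1.32, adjusted p = 0.0278), the last of which lost its call without TG replicate 1, 2 or 3 and without WT replicate 1 or 2 (adjusted p up to 0.0852, log2 fold changes 1.14 to 1.74). Of 10 collagen receptors 7 were called higher (median 0.96), among them the integrin genes Itga1 (116 ± 13.7 CPM in TG libraries and 55.6 ± 14.4 CPM in WT libraries; log2 fold change 1.06, SE 0.165, adjusted p = 0.00101) and Itgb1 (0.40, adjusted p = 0.00659), the uptake receptor Mrc2 (1.46, adjusted p = 0.0125) and the receptor kinase Ddr1 (0.45, adjusted p = 0.0135). The call of Ddr1 was lost without TG replicate 3, TG replicate 4 or WT replicate 1 (adjusted p up to 0.0564, log2 fold changes 0.33 to 0.57).

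Of 10 leucine-rich proteoglycans that bind fibres 9 were tested and 7 were called higher (median 1.84): Omd (2.58 ± 1.34 CPM in TG libraries and 0.431 ± 0.203 CPM in WT libraries; log2 fold change 2.56, SE 0.486, adjusted p = 0.00167), Aspn (1.21, adjusted p = 0.00376), Ogn (1.97, adjusted p = 0.00673) and Lum (2.45, adjusted p = 0.0108) had the lowest adjusted p. Of 16 other basement membrane genes 14 were called higher (median 1.04), led by the laminin chain genes Lama3 (65.8 ± 9.14 CPM in TG libraries and 29.3 ± 6.87 CPM in WT libraries; log2 fold change 1.17, SE 0.151, adjusted p = 0.000135), Lamb3 (2.13, adjusted p = 0.000294) and Lama5 (0.94, adjusted p = 0.00264). Of 16 TGF-beta ligands, receptors and targets, a pathway known to raise collagen transcription, 11 were called higher (median 0.92). They included the receptor genes Acvrl1 (1.13, adjusted p = 0.000339) and Tgfbr3 (0.77, adjusted p = 0.00106), the ligand Tgfb3 (17.2 ± 6.102 CPM in TG libraries and 4.68 ± 2.08 CPM in WT libraries; log2 fold change 1.87, SE 0.332, adjusted p = 0.00275) and the target Ccn2 (1.47, adjusted p = 0.00295).

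Markers of the cells known to make collagen moved the same way as the collagens. Endothelial markers were called higher for 14 of 15 genes, with a summed level of 1637 to 1696 CPM in TG libraries and 634 to 1173 CPM in WT libraries. Mural markers were called higher for 9 of 12 genes, with 935 to 1308 CPM in TG libraries and 407 to 761 CPM in WT libraries. Stellate cell and fibroblast markers were called higher for 10 of 12 genes, with 351 to 565 CPM in TG libraries and 69.9 to 192 CPM in WT libraries. WT replicate 3 held the highest WT sum in each of these lists, and none of their genes was at 0 in any library. The part of these cells in the collagen differences was not tested beyond the comparisons that follow.

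Other markers differed too. Ductal markers were called higher for 5 of 7 genes (755 to 1031 CPM in TG libraries and 373 to 427 CPM in WT libraries), macrophage markers for 8 of 10 (183 to 484 CPM in TG libraries and 103.5 to 169.6 CPM in WT libraries) and Schwann cell markers for 3 of 8 (111 to 134 CPM in TG libraries and 63.6 to 84.95 CPM in WT libraries). Without WT replicate 3 the counts were 3 of 7, 7 of 10 and 4 of 8 in that order. Most of the ductal sums came from Spp1 and Krt7. Spp1 averaged 498.5 CPM in TG libraries and 77.0 CPM in WT libraries. Krt7 averaged 289 CPM in TG libraries and 297 CPM in WT libraries and was not called. Of 4 tested mesothelial markers 1 was called higher and 1 lower, with sums of 14.8 to 20.1 CPM in TG libraries and 52.6 to 76.1 CPM in WT libraries. These sums were mostly Msln, the marker called lower, with means of 13.7 CPM in TG libraries and 63.3 CPM in WT libraries. Upk3b, the marker called higher, averaged 1.9 CPM in TG libraries and 0.327 CPM in WT libraries. No acinar marker of 9 tested was called, with sums of 5971 to 39260 CPM in TG libraries and 1187 to 11720 CPM in WT libraries, and neither was any of 6 markers of alpha, delta and PP cells (37480 to 54520 CPM in TG libraries and 25710 to 44260 CPM in WT libraries). Ptf1a, an acinar marker, was at 0 in TG replicate 4 and in all 4 WT libraries.

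Set against these markers library by library, the ranges of TG and WT overlapped in each of 4 ratios with all 8 libraries. The summed CPM of fibrillar collagens over that of stellate cell and fibroblast markers was 9.21 ± 1.204 in TG libraries and 10.4 ± 1.95 in WT libraries (SD, n = 4 each). The ratio of basement membrane collagens to endothelial markers was 1.24 ± 0.0791 in TG libraries and 1.35 ± 0.193 in WT libraries, and that to mural markers 1.97 ± 0.299 in TG libraries and 2.001 ± 0.318 in WT libraries. Fibrillar collagens over mural markers came to 3.79 ± 0.872 in TG libraries and 2.16 ± 0.836 in WT libraries, with WT replicate 3, at 3.35, inside the TG range. Without that library the last ratio was 1.76 ± 0.312 in WT libraries (n = 3), all of them below the lowest TG library, and the other 3 ratios still overlapped.

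With the mean log2 level of the endothelial, mural and stellate cell and fibroblast markers as a covariate, 1 collagen gene was called higher, Col6a4 (4.09, adjusted p = 0.00225), against 0.683% of all tested genes. Col6a6 remained called lower (−0.84, adjusted p = 0.0353). The median log2 fold change of the 44 genes was −0.47 in that fit, against −0.025 over all tested genes. Of the 44 genes 32 had a negative fold change, and 25 had a larger SE than without the covariate. The covariate itself separated the groups, from 0.507 to 0.979 in TG libraries and from −1.04 to 0.013 in WT libraries, so that the genotype and the level of these markers cannot be told apart. In the same fit no gene of the 7 lists of genes that act on collagen was called higher, and 1 of the processing and cross-linking list was called lower.

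Annotated exons of 13 of the 44 genes overlap exons of another gene, mostly over a small part of their length. No source used here gives the strand setting, so reads from overlapping genes on opposite strands may have been left as ambiguous or counted for either. Exons of Col4a3 overlap an opposite gene over 5.65% of their length and those of Col9a3 over 6.07%, while Col6a4 exons overlap 2 opposite transcripts over 1.49% and 1.90% and all other overlaps are under 2%.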

How the data were processed

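Gene counts of 8 libraries of mouse islet RNA, 4 TG and 4 WT, were used as deposited: the authors' whole-number read counts per Ensembl gene, not normalized. Alignment with STAR 2.7.10a, counting with HTSeq 0.11.3 and build mm39 come from the submitters' processing notes; the annotation and strand setting were not given in the sources used here. Reads in no gene were 25.3% to 31.5% and ambiguous reads 3.74% to 4.36% of each table, and neither entered library sizes or tests. Replicates differed by more than sampling noise (chi-square per gene of 16.9 to 56.7). Precision is limited by 16521087 to 22499999 gene counts a library.

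Symbols, exon lengths and overlaps came from GENCODE M21 on GRCm38, which held 52133 of the 55414 identifiers and all 233 genes of the lists used. Genes were kept by filterByExpr of edgeR at a minimum count of 10, scaled by TMM, and compared with the robust quasi-likelihood test of edgeR 4.0.16 in R 4.3.3, two-sided, with group as the only term and Benjamini-Hochberg adjustment over 20509 genes. The step was tested on simulated data with known fold changes. CPM use TMM effective library sizes, and shares use gene counts unless stated. Ratios of counts were compared on the log2 scale by exact permutation. Alternatives were DESeq2 1.42.0, limma-voom (limma 3.58.1), median-of-ratios and upper-quartile scaling, all genes with a count, genes at 1 CPM in 4 libraries, the replicate number as a block, acinar and vascular-stromal marker covariates (prior of 0.5 CPM), and each library left out.

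The collagen genes, the classes, the other lists and the tests were chosen with earlier results of these data known. Collagen genes that averaged 5 CPM or more and the called genes with the largest and smallest fold changes are named with values, the rest by fold change, and of each pathway list the 4 with the lowest adjusted p, except 1 gene that is not reported here.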

Additional observations from a re-analysis of the deposited data

Results flagged for a closer look

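Within groups of 4 libraries, 174 sets of values (34 collagen genes averaging 5 CPM or more, the 28 genes of lowest adjusted p in the pathway lists, Serpinh1, Atf4, and summed classes and lists) were searched for a library far from the others of its group, taken as a gap to the nearest library above 0.829 of the group's whole range. Chance alone gives about 1 such set in 20, and 10 of the 174 were found, close to that rate. Of these 10, 7 were in WT replicate 3. The sets share the same libraries, and the sums hold genes that were also searched singly, so they are not independent. WT replicate 3 was far above the other WT libraries for Col4a6, where the gap was 0.925 of the range, for Col13a1, where it was 0.894, and for Col6a6, where it was 0.869. It was also far above them in the summed level of the procollagen processing and cross-linking genes (0.931) and of the TGF-beta genes (0.923), and for Lama5 (0.94) and Acvrl1 (0.953). TG replicate 4 was far from the other TG libraries for Acvrl1, at 28.9 CPM against 39.9 to 41.95 CPM in the other TG libraries, a gap of 0.841 of the range. TG replicate 1 was far above the other TG libraries for Col7a1, at 34.5 CPM against 12.3 to 13.3 CPM in the other TG libraries, a gap of 0.953 of the range. TG replicate 2 was far above the other TG libraries in the summed beta cell markers, at 63950 CPM, a gap of 0.847 of the range. No cause was tested for any of these.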

How the results depend on the processing

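With all 8 libraries 11 collagen genes were called higher. DESeq2 called 24, limma-voom 18, a fit with the replicate block 22 and the vascular and stromal covariate 1, while 10 to 14 were called under the other scalings, filters and the acinar covariate. Those other scalings, filters and the acinar covariate called 1990 to 2554 genes higher over all genes. The filter of 1 CPM in 4 libraries added calls of Col5a3, Col18a1 and Col26a1, no filter that of Col26a1 and the acinar covariate that of Col5a3. As single libraries were left out the count ran from 6 (without TG replicate 1) to 29 (without WT replicate 3), and the count called lower from 0 to 1. Over all genes the vascular and stromal covariate left 140 called higher and 184 called lower, in place of 2475 and 1654. With that covariate the fold changes of genes called higher turned negative for Col5a2 (−0.42), Col4a3 (−0.51), Col4a5 (−0.10), Col4a6 (−0.28), Col13a1 (−0.044), P3h3 (−0.045), Loxl1 (−0.22), Mmp14 (−0.44) and Ogn (−0.092), none of them called there. The covariate itself separates the groups. The mean TG collagen share was 0.955% of gene counts without the 50 most abundant genes, in place of 0.741%, because the denominator is smaller. The mean WT share was 0.3825% there, in place of 0.279%. The ratio of TG to WT was then 2.50, and 2.47 per TMM effective library size, both below the 2.65 per gene counts. The log2 difference of the Col1a2 to Col1a1 ratio was 0.60 and ran from 0.48 to 0.80 as libraries were left out, with 0.80 and exact p = 0.0286 without TG replicate 4. That of Col4a2 to Col4a1 ran from −0.07 to 0.06 and that of Col6a2 to Col6a1 from −0.21 to −0.07. For the other results that moved the cause was not tested.

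Whether the replicate numbers pair the libraries was not settled. Deviations from the group means correlated at 0.046, 0.121, 0.022 and 0.074 between libraries of the same number. Between libraries of different numbers the correlations ran from −0.193 to 0.181, and not every library correlated best with its own number. With the replicate block 2769 genes, 13.5% of those tested, were called higher and 1904 lower. The collagen genes gained under it were Col1a2, Col3a1, Col5a3, Col4a1, Col4a2, Col18a1, Col6a3, Col6a5, Col14a1, Col16a1 and Col26a1. Pairing leaves the log2 differences of the ratios as they are by arithmetic (0.60 for Col1a2 to Col1a1). Their exact p over pairs were 0.125 for Col1a2 to Col1a1, 1 for Col4a2 to Col4a1 and 0.25 for Col6a2 to Col6a1. The value of 0.125 is the smallest that these pairs allow, so no ratio could pass 0.05 in that test. Col24a1, Col9a1, Col17a1, Col22a1, Col2a1 and Col10a1 had few counts, which limits what differences could be detected there.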
